A study of Mus musculus with 8 samples.

Results

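Growth factors of the epidermal growth factor (EGF) family and their ErbB receptors were examined in mouse ventricles 24 hours after myocardial infarction (MI). The family was taken as 10 genes, namely the 6 ligand genes Hbegf, Areg, Ereg, Nrg1, Tgfa and Btc and the 4 receptor genes Egfr, Erbb2, Erbb3 and Erbb4, out of 20145 genes that had a probe named by a RefSeq transcript on the array. They were chosen by name and not by their values, though earlier results of these data were known at that time. Egfr had 3 such probes and each of the other 9 genes had 1 probe, and the probe with the highest mean signal stood for its gene.

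All mice were adult males of the C57BL\6 background. In 4 MI mice the anterior interventricular artery was tied off for good, and 4 sham-operated mice had the same operation with no ligation. Total RNA from the ventricles was labeled in 1 colour, and each mouse had 1 array of the SurePrint G3 8x60K type. The whole ventricles were used, so that fewer cells of a type and less RNA per cell cannot be told apart in these data. All 8 cardiomyocyte markers (Myh6, Myl2, Tnnt2, Tnni3, Actn2, Ryr2, Atp2a2 and Pln) were well above background on all 8 arrays. Values are log2 signals on the scale of the authors' spike-in normalization. A spot was counted as detected when the scanner software marked its signal as well above background, and the share of detected spots ranged over the arrays from 58.6% up to 66.4%. A probe detected on at least 4 of the 8 arrays was tested in limma, and a change was called at a p under 0.05 after Benjamini-Hochberg adjustment over all 34038 tested probes. With 4 arrays a group, the precision of all values is limited by their number.

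Ligands of this family are made as precursors in the cell membrane and are released by metalloproteinases of the ADAM group. Heparin-binding EGF, amphiregulin, epiregulin, transforming growth factor alpha and betacellulin bind the EGF receptor, and some of them also bind ErbB4, whereas neuregulin 1 binds ErbB3 and ErbB4. ErbB2 has no known ligand of its own and acts as a partner of the other receptors. In the adult heart, neuregulin released by endothelial cells acts on ErbB4 and ErbB2 of cardiomyocytes, and mice without cardiomyocyte Erbb2 develop dilated cardiomyopathy.

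Hbegf, Ereg and Nrg1, all ligands, were higher in MI mice than in sham-operated mice, with log2 fold changes of 3.03 (SE 0.23), 3.08 (SE 0.21) and 0.90 (SE 0.24). Of the 8 members tested, 3 were called and all 3 were higher in MI mice, where 7.61% of all tested probes were called, 6.30% as higher and 1.31% as lower. Hbegf and Ereg were also higher by more than 2-fold, as were 3.07% of all tested probes. The groups of MI and sham-operated mice did not overlap for these 2 genes, as was the case for 11.2% of all tested probes. The median log2 fold change was 0.40 over the 8 tested members and 0.12 over all tested probes, and with 75th percentile scaling of the arrays these medians were 0.50 and -0.02. They lay closer together with the authors' normalized values (0.16 and 0.095), the vsn model fitted anew (0.07 and 0.03) and normexp background correction (0.07 and -0.02). All changes below are to be read against the general shift of all tested probes. Areg was not tested because it was detected on 3 arrays, and Erbb4 was detected on none. Tgfa and Erbb3 passed the detection filter through the MI group, with 4 MI arrays and 1 sham array detected for each, so that the counts and the median over tested members are descriptions only.

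**Figure D1:**
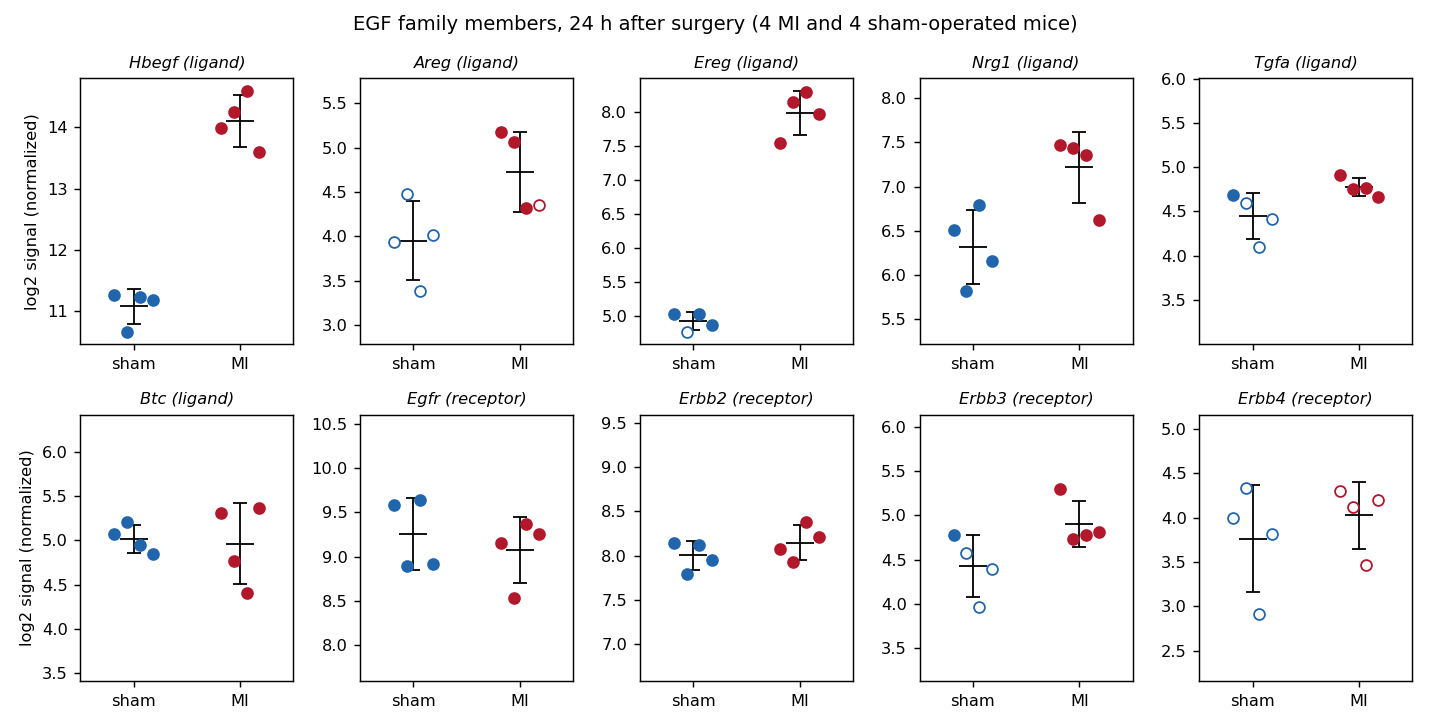
Log2 signal of the brightest probe of each of the 10 genes in each mouse, with sham-operated mice in blue and MI mice in red; filled points were well above background, open points were not, and bars are the mean ± SD of 4 mice. Each panel has its own log2 axis, and the red and blue points are fully apart for Hbegf and Ereg only.

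The genes of 3 members, Ereg, Areg and Btc, lie close together on mouse chromosome 5, along with that of epigen (Epgn), another ligand of the EGF receptor. On GRCm38.p6 Epgn spans chr5:91027517-91035212, Ereg chr5:91074617-91093649, Areg chr5:91139599-91148432 and Btc chr5:91357261-91402994, which together cover 375.5 kb. In this run of neighbours Ereg alone was called, beside undetected sham signals of Areg and log2 fold changes near 0 for Btc and Epgn (0.08, SE 0.24). The RefSeq promoter table of GRCm38.p6 held 6 of the 10 members. Windows of 250 bases before the gene start are printed for Areg and Btc, neighbours of Ereg that were not called, to set a window with both marked elements beside one with none. Ereg, Nrg1, Erbb3 and Hbegf were not in that table, so that no window of a called member was searched. Capitals mark the cyclic AMP response element TGACGTCA and the TATA box TATAAA, and each window is given 5′ to 3′ on the strand of its gene (Areg chr5:91139349-91139598, plus strand, and Btc chr5:91402995-91403244, minus strand).
Areg: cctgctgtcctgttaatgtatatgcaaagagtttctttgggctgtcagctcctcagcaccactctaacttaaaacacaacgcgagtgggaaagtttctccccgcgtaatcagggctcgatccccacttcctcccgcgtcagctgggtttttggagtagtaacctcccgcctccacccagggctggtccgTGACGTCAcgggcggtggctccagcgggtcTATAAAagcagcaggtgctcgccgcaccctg
Btc: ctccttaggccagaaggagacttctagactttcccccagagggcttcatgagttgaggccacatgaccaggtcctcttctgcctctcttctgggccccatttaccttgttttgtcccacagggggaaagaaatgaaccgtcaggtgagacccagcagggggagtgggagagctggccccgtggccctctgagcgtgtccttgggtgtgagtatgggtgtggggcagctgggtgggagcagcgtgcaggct
The Areg window held 1 cyclic AMP response element from base -61 to base -54, counted back from the gene start, and 1 TATA box from base -31 to base -26. On either strand, TGACGTCA was found in 1.55% and TATAAA in 12.4% of 32851 promoter windows of this length. The AP-1 element TGANTCA was in 6.75% of windows and not in that of Areg. The windows of Btc, Tgfa, Egfr, Erbb2 and Erbb4 held none of the 3 elements, which says only that these letters are not there.

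Hbegf encodes heparin-binding EGF-like growth factor, a ligand of the EGF receptor and ErbB4. Its probe (NM_010415, gene at chr18:36504927-36515805) was detected on all 8 arrays. The log2 signal was 14.00, 14.25, 14.60 and 13.60 in MI mice 1 to 4 and 11.26, 10.66, 11.23 and 11.18 in sham-operated mice 1 to 4. The lowest MI mouse was thus well above the highest sham-operated mouse. Before normalization, the intensities of MI mice lay between 14470 and 24660 and those of sham-operated mice between 1598 and 2908. The means were 14.11 ± 0.42 (SD, n = 4) and 11.08 ± 0.29 (SD, n = 4). For Hbegf the log2 fold change was 3.03 (SE 0.23, 95% interval 2.56 to 3.51), an 8.18-fold higher signal (5.89 to 11.4), with an adjusted p of 7.91e-10 in limma. In the exact two-sided permutation test p was 0.0286, the smallest that 4 against 4 mice can give. The log2 fold change was 2.91 to 3.05 in 13 other settings and was called in all of them.

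Ereg encodes epiregulin, another ligand of the EGF receptor and ErbB4. Its probe (NM_007950) was detected on 4 MI arrays and 3 sham arrays. The log2 signal was 7.55, 8.16, 8.31 and 7.97 in MI mice 1 to 4 and 5.03, 4.76, 5.03 and 4.86 in sham-operated mice 1 to 4. The MI mice were all above the sham-operated mice, in which the signal was close to background with intensities of 9.20 to 23.0 against 165.9 to 341 in MI mice. The mean was 8.0 ± 0.33 (SD, n = 4) after MI and 4.92 ± 0.13 (SD, n = 4) after sham operation. The log2 fold change of Ereg was 3.08 (SE 0.21, 95% interval 2.64 to 3.52), an 8.45-fold higher signal (6.25 to 11.4), with an adjusted p of 1.18e-10 in limma and p = 0.0286 in the exact permutation test. Its size depended on how the low sham signals were handled. The log2 fold change was 1.00 with the vsn model fitted anew, 1.72 with normexp background correction and 3.82 with a spike-in shift and no additive constant, and it was called in all 12 settings in which Ereg was tested.

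Nrg1 encodes neuregulin 1, the ligand of ErbB3 and ErbB4. Its probe (NM_178591, gene at chr8:31807452-32891609) was detected on all 8 arrays. The log2 signal was 7.47, 7.43, 7.35 and 6.62 in MI mice 1 to 4 and 6.51, 5.82, 6.79 and 6.16 in sham-operated mice 1 to 4. The groups overlapped, since MI mouse 4 was below sham-operated mouse 3. The means were 7.22 ± 0.40 (SD, n = 4) and 6.32 ± 0.42 (SD, n = 4). The log2 fold change of Nrg1 was 0.90 (SE 0.24, 95% interval 0.40 to 1.39), a 1.86-fold higher signal, with an adjusted p of 0.0184 in limma and p = 0.0571 in the exact permutation test. Nrg1 was called in 6 of 13 other settings, and the call was lost without MI mouse 1 (adjusted p = 0.0646 in limma), without MI mouse 2 (0.0582) and without sham-operated mouse 2 (0.0699).

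Areg encodes amphiregulin, a ligand of the EGF receptor, and was dim in these ventricles. The log2 signal of its probe (NM_009704) was 5.18, 5.06, 4.32 and 4.35 in MI mice 1 to 4 and 3.93, 4.48, 3.38 and 4.01 in sham-operated mice 1 to 4. It was detected on 3 MI arrays and on no sham array, and the groups overlapped. Means were 4.73 ± 0.45 (SD, n = 4) and 3.95 ± 0.45 (SD, n = 4). The mean Areg signal of MI mice was 1.50-fold the lowest detectable signal of the sham arrays. This is a point estimate and not a lower bound, and its mean includes MI mouse 4, in which Areg was not detected. The exact permutation test gave p = 0.0857. With no detection filter, limma gave a log2 fold change of 0.78 (SE 0.29, adjusted p = 0.328).

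Tgfa, which encodes transforming growth factor alpha, and Btc, which encodes betacellulin, were both dim and were not called. For Tgfa (NM_031199, gene at chr6:86195038-86275744), the log2 signal lay between 4.66 and 4.91 after MI and between 4.09 and 4.69 after sham operation, so that the groups overlapped slightly. Its log2 fold change was 0.33 (SE 0.21, 95% interval -0.10 to 0.75, adjusted p = 0.410 in limma). For Btc (NM_007568), detected on all 8 arrays, the log2 signal ran from 4.4 to 5.37 after MI, and the sham values, 4.85 to 5.21, all lay inside this range. Its log2 fold change was -0.06 (SE 0.23, 95% interval -0.52 to 0.41, adjusted p = 0.925 in limma). These intervals leave room for changes of either size within them and do not show that the ligands were equal.

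**Figure D2:**
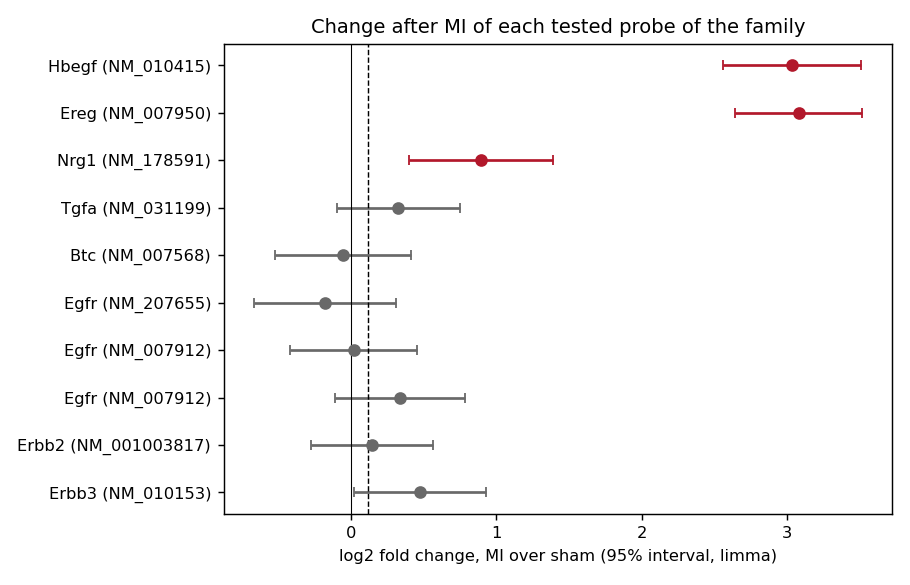
Log2 fold change (MI over sham) of the 10 tested probes of the family, with 95% intervals from limma; red marks probes with an adjusted p under 0.05, the dashed line is the median of all tested probes (0.12) and the solid line is 0. Hbegf and Ereg lie near 3, Nrg1 near 0.9, and the intervals of the remaining probes reach or nearly reach 0.

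None of the 3 tested receptors was called by limma. At an unadjusted p under 0.05, limma gave 1 of the 3 (Erbb3) and the unmoderated test of the methods gave 0. Over all 34038 tested probes the same tests gave 6778 and 5337. Egfr encodes the receptor of most of the ligands above. The log2 signal of its brightest probe (NM_207655, gene at chr11:16752203-16913907) was 9.16, 8.53, 9.37 and 9.26 in MI mice 1 to 4 and 9.58, 8.89, 9.64 and 8.91 in sham-operated mice 1 to 4, with overlapping groups. Its log2 fold change was -0.18 (SE 0.24, 95% interval -0.67 to 0.31, adjusted p = 0.743 in limma). The other Egfr probes, both named by NM_007912 and detected on all 8 arrays, gave log2 fold changes of 0.02 (SE 0.21) and 0.34 (SE 0.22), so that the probes of Egfr differed in sign and none of them was called.

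Erbb2 encodes the receptor without a ligand of its own (NM_001003817, gene at chr11:98412484-98437716). Its log2 signal was 8.08, 7.93, 8.38 and 8.21 in MI mice 1 to 4 and 8.14, 7.79, 8.12 and 7.96 in sham-operated mice 1 to 4, again with overlapping groups. The means were 8.15 ± 0.19 (SD, n = 4) and 8.0 ± 0.16 (SD, n = 4), and the log2 fold change was 0.15 (SE 0.20, 95% interval -0.27 to 0.56, adjusted p = 0.759 in limma). Erbb3 encodes a neuregulin receptor with little kinase activity of its own (NM_010153, gene at chr10:128567523-128589635). Its log2 signal was 5.29, 4.73, 4.78 and 4.82 in MI mice 1 to 4 and 4.78, 4.58, 3.97 and 4.39 in sham-operated mice 1 to 4. Only sham-operated mouse 1 reached the range of the MI mice. Erbb3 had a log2 fold change of 0.48 (SE 0.22, 95% interval 0.02 to 0.93), with an unadjusted p of 0.0404 and an adjusted p of 0.223 in limma. It passed the detection filter through the MI group, with 4 MI arrays and 1 sham array detected. Over 12 other settings the log2 fold change of Erbb3 ran from 0.05 to 0.76 and was not called in any. With the authors' normalized values it was 0.13. Erbb4, the neuregulin receptor of cardiomyocytes, was not well above background on any array with its probe (NM_010154, gene at chr1:68031884-69108576), so no fold is given. This bounds the signal of that probe and does not show that the transcript was missing from the tissue.

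The remaining genes of the ErbB pathway were described through a list of 55 genes with a probe, of which 54 were tested. Of these, 5 were higher and 2 were lower in MI mice after adjustment, and 1, Dusp5, was higher by more than 2-fold. Dusp5 passed the detection filter through the MI group and Nrg2, 1 of the 2 lower genes, through the sham group. These counts are therefore descriptions only. The median log2 fold change over the list was 0.17, close to the 0.12 of all tested probes, and 7 calls among 54 genes compare with 7.61% of all tested probes. The number of calls depended on the scaling and on single mice, from 1 to 15 over the settings, and was 2 without MI mouse 3. None of the 7 called genes changed sign in any setting in which it was tested. The groups did not overlap for 6 of the 54 genes, beside 11.2% of all tested probes, so a lack of overlap was not particular to this list.

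Among the other ligands, Egf and Nrg2 were lower in MI mice, which is the opposite direction to Hbegf, Ereg and Nrg1. The log2 signal of Egf, the founding ligand of the family, was 6.83, 6.61, 6.97 and 7.36 in MI mice 1 to 4 and 7.81, 7.26, 8.28 and 7.52 in sham-operated mice 1 to 4. MI mouse 4 was above sham-operated mouse 2. The log2 fold change of Egf was -0.78 (SE 0.23, adjusted p = 0.0393 in limma). Nrg2, which encodes neuregulin 2, was detected on 2 MI arrays and 4 sham arrays. It thus passed the detection filter through the sham group, with intensities of 12.3 to 29.6 in MI mice. The log2 fold change of Nrg2 was -0.81 (SE 0.25, adjusted p = 0.0411 in limma), again with overlapping groups. Both calls were fragile. Egf was called in 3 of the 8 fits that each left out a mouse and in 8 of 13 other settings. Nrg2 was called in 3 of the 8 and in 5 of 12 other settings, over which its log2 fold change ran from -1.47 to -0.16. With the authors' normalized values neither of them was called in limma. Nrg4, which encodes neuregulin 4, had a log2 fold change of -0.43 (adjusted p = 0.350 in limma). Nrg3 was not well above background on any array.

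The sheddases and the rhomboid-like proteins that carry ADAM17 to the cell surface gave no call among 7 tested genes in limma. At an unadjusted p under 0.05 there were 2, and as many by the unmoderated test, beside 6778 and 5337 of all 34038 tested probes. Adam19 had the lowest adjusted p, with a log2 fold change of 0.73 (SE 0.23, adjusted p = 0.0543) over 3 MI mice and 4 sham-operated mice, since its spot was an outlier on 1 MI array. The partners of ADAM17 had log2 fold changes of 0.60 for Rhbdf2 (adjusted p = 0.113 in limma) and 0.41 for Rhbdf1 (0.290). Adam17 and Adam10, the main sheddases of EGF receptor ligands, were at -0.05 and -0.09.

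Among 11 genes whose products restrain the receptors, 2 were higher. Ptpn1, which encodes the phosphatase PTP1B, had a log2 fold change of 0.81 (SE 0.21, adjusted p = 0.0171 in limma), and its lowest MI mouse (9.19) was above its highest sham-operated mouse (8.99). Rnf41, which encodes a ubiquitin ligase that acts on ErbB3, had a log2 fold change of 0.68 (SE 0.21, adjusted p = 0.0435 in limma), also without overlap of the groups. Ptpn1 was called in 10 of 13 other settings and 5 of the 8 fits without a mouse. Rnf41 was called in 7 of 13 other settings, with a log2 fold change as low as 0.28, and in 2 of the 8 fits without a mouse. Cbl, a ubiquitin ligase of the EGF receptor, was at 0.57 (adjusted p = 0.202 in limma). Errfi1, an inhibitor of the receptor kinases, was at 0.18.

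Of 24 adaptors and relay kinases, 1 was higher, namely Map2k1, which encodes the ERK kinase MEK1 (log2 fold change 0.69, SE 0.21, adjusted p = 0.0414 in limma). Map2k1 was called in 10 of 13 other settings but in 2 of the 8 fits without a mouse. Akt1 was at 0.58 (adjusted p = 0.149 in limma) and Stat3 at 0.54 (0.160). Of 8 feedback inhibitors of the ERK relay, 2 were higher. Dusp5 encodes a nuclear phosphatase of ERK. Its log2 signal was 6.22, 5.70, 6.56 and 5.96 in MI mice 1 to 4 and 4.64, 4.82, 4.32 and 4.71 in sham-operated mice 1 to 4, so that the groups did not overlap. It was detected on 4 MI arrays and 1 sham array and so passed the detection filter through the MI group, with sham signals near background. The log2 fold change of Dusp5 was 1.49 (SE 0.22, adjusted p = 3.48e-05 in limma), a 2.80-fold higher signal. Dusp5 was called whichever mouse was left out and in 11 of 12 other settings, over which its log2 fold change ran from 0.26 to 2.08, so that its size, like that of Ereg, depended on how low signals were handled. Spred1, which encodes an inhibitor of RAS to ERK signaling, had a log2 fold change of 0.80 (SE 0.21, adjusted p = 0.0157 in limma) and was called in 11 of 13 other settings and 5 of the 8 fits without a mouse. Spry2, of the sprouty inhibitors, was at 0.42 (adjusted p = 0.279 in limma).

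**Figure D3:**
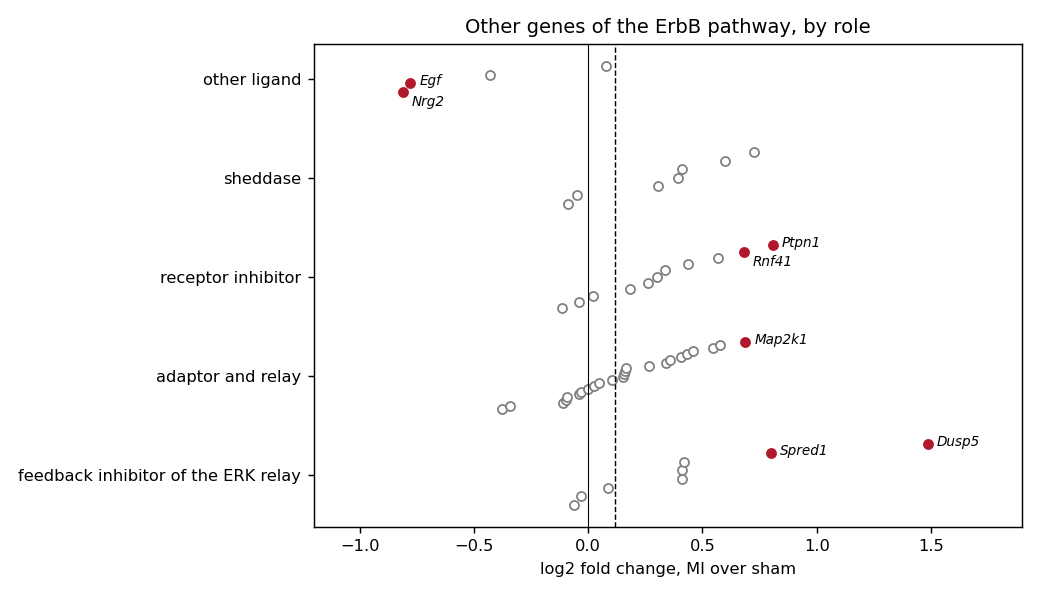
Log2 fold change (MI over sham) of 54 tested genes of the ErbB pathway other than the 10 members, grouped by role, with filled red points for genes with an adjusted p under 0.05 in limma and open grey points for the rest; the vertical spread within a role only separates the points. The dashed line is the median of all tested probes (0.12), Dusp5 lies farthest to the right and Egf and Nrg2 farthest to the left.

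Cell type markers did not all move in the same direction as Hbegf and Ereg. Most neutrophil markers were higher in MI mice. Log2 fold changes were below 0 for 7 of 8 cardiomyocyte markers (all but Actn2, at 0.51) and 5 of 6 fibroblast markers (all but Tcf21, at 0.40). None of these markers was called, and 11936 of all 34038 tested probes were below 0. Of 6 tested neutrophil markers, 5 were higher in MI mice, with log2 fold changes of 2.79 for S100a9 and 3.02 for S100a8 beside 0.08 for Csf3r. Their summed linear signal was 203830 to 315400 in MI mice and 61356 to 80240 in sham-operated mice. Of 5 tested monocyte and macrophage markers, Cd14 (2.25) and Ccr2 (1.15) were higher, beside log2 fold changes of -0.16 for Csf1r, -0.24 for Adgre1 and 0.15 for Lyz2. The summed signal of these markers was 15228 to 21484 in MI mice and 11082 to 17328 in sham-operated mice. The part of these cells in the changes of Hbegf, Ereg and Nrg1 was not tested. None of the 8 cardiomyocyte markers was called (median log2 fold change -0.08, with 2 at an unadjusted p under 0.05 in limma and 1 by the unmoderated test). With the same 3 quantities given for each list, none of the 6 endothelial markers (0.25, 2 and 1), the 6 fibroblast markers (-0.41, 1 and 0), the 4 Schwann cell markers (-0.09, 1 and 1), the 4 mesothelial markers (-0.03, 0 and 0) and the 3 B cell markers (0.67, 2 and 1) was called. Over all 34038 tested probes the unadjusted counts were 6778 in limma and 5337 by the unmoderated test. The B cell markers Cd79a and Ms4a1 passed the detection filter through the MI group, with 3 MI arrays and 1 sham array detected for each. Called as higher were 1 of 4 smooth muscle markers (Acta2, 1.46), 1 of 2 tested T cell markers (Cd3d, 0.90), 1 of 3 tested basophil and mast cell markers (Kit, 1.93) and 1 of 2 tested epithelial markers (Cdh1, 1.1). Cdh1 also passed the detection filter through the MI group, with 4 MI arrays and 1 sham array detected. Of the same lists, Cd3e of T cells (-0.12) and Cpa3 (-0.45) and Fcer1a (-0.19) of basophils and mast cells were detected on all 8 arrays and not called, and Mcpt8, Epcam and Cd3g were not well above background on any array.

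For the called members, the genes with the most similar pattern between mice were sought among 14031 genes detected on all 8 arrays, as the Pearson correlation of deviations from the group means over the 8 mice. For Hbegf these were Ier3 (0.974), Dnajb1 (0.970) and Chd6 (0.958), for Ereg Gm14548 (0.961), Isg15 (0.959) and Cxcl2 (0.953), and for Nrg1 Upk1a (0.939), Mctp2 (0.934) and Dio2 (0.921). Between the called members the correlation was 0.755 for Hbegf and Nrg1, 0.625 for Hbegf and Ereg and 0.229 for Nrg1 and Ereg. These values describe 8 arrays that share a slide and a normalization. The genes named for each member are the highest of 14031 searched over only 8 arrays, and no test was run. Values of this size can arise by chance in such a search, so no shared regulation is read from them.

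**Figure D4:**
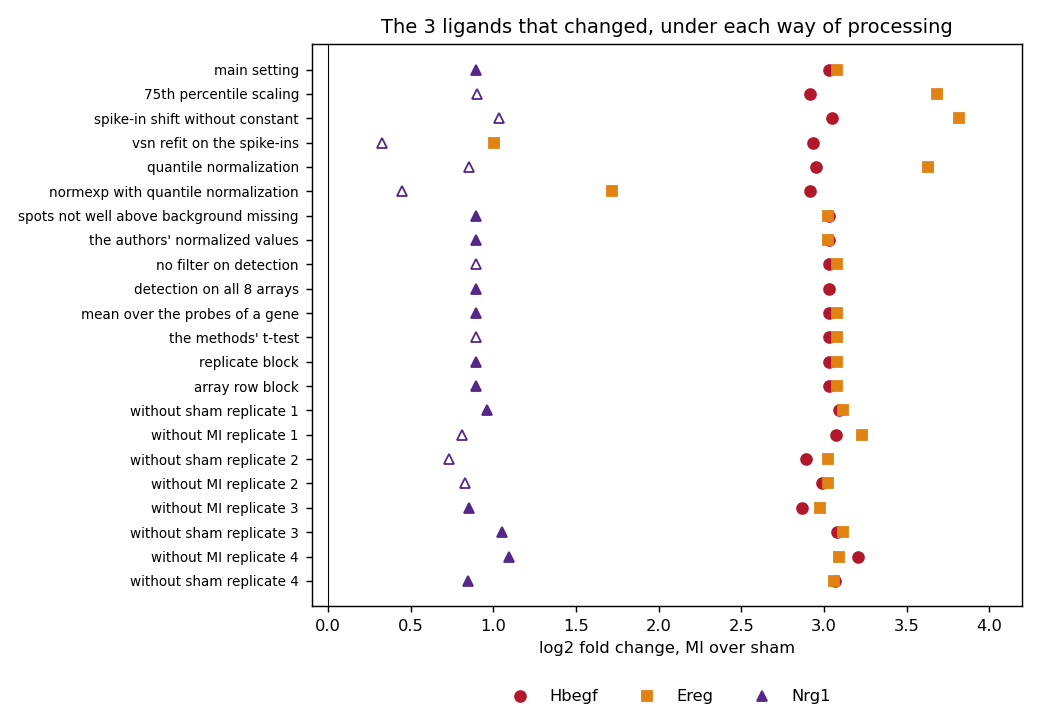
Log2 fold change (MI over sham) of Hbegf (circles), Ereg (squares) and Nrg1 (triangles) in the main setting, in 13 other settings and with each of the 8 mice left out, with filled symbols where the adjusted p was under 0.05; Ereg has no value where detection on all 8 arrays was required. Hbegf stays between 2.87 and 3.20, Ereg spreads from 1.00 to 3.82, and Nrg1 from 0.33 to 1.09 with open symbols in 10 of its 21 alternatives.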

How the data were processed

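The intensities that the authors deposited were processed by the scanner software, Feature Extraction 11.0.1.1 per the file headers (200 ng of total RNA per sample, local background subtracted, spatial trend removed, no normalization between arrays), with median spot and background intensities and 0 or 1 flags for outlier, saturated and well-above-background spots. The authors deposited log2 values that they made from spots well above background, normalized on spike-in probes with limma and vsn. From these, the scale and additive constant (3.16 to 19.6) of each array were recovered with a misfit of at most 5.02e-09 on the log2 scale, and applied here to all processed signals. Outlier spots were left out, spots of a probe averaged and control probes removed. Detection on at least 4 of 8 arrays left 34038 of 55681 probes, 26582 of all probes being named through RefSeq accessions (GRCm38.p6 table).

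MI mice (4) and sham-operated mice (4) were compared in limma 3.58.1 (R 4.3.3) without covariates, with Benjamini-Hochberg adjustment, in place of the permutation-based method of the study. Single values were compared by exact two-sided permutation. Python 3.11.15, numpy 2.4.6, scipy 1.17.1, pandas 2.3.3 and matplotlib 3.10.9 were used. On simulated data for 33865 probes, limma recovered 75% of 100 probes changed 2-fold and 100% of 100 changed 4-fold, with 15 false calls. The simulated noise was independent between probes, so that deviations shared by the probes of an array were left out. Arrays of a group correlated at 0.990 or more. All arrays shared 1 slide, and each of its 2 rows held 2 arrays of each group.

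The members, the ErbB pathway list, the 12 cell type marker lists and the tests were chosen with earlier results of these data known. Named genes are the members, pathway genes called past 2-fold, the 3 with the lowest adjusted p in each role and up to 3 markers a list; Adam10, Adam17, Errfi1, Epgn and Nrg3, the called genes of the marker lists, the genes named only for a mouse that stood apart and other markers given with a value were named after their values were seen. Alternatives were 75th percentile scaling, a spike-in shift without constant, the vsn model fitted anew, quantile normalization, normexp (offset 50) with quantile normalization, undetected spots missing, the authors' values, no detection filter, detection on all 8 arrays, the mean over probes, a block for the replicate number, a block for the array row, the methods' t-test, and each mouse left out. The unmoderated test named with the results is the methods' t-test. Ly6g, Cd68 and Trac had no RefSeq-named probe.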

Additional observations from a re-analysis of the deposited data

Results flagged for a closer look

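In 9 groups of 4 mice among 127 examined, over the members and the tested pathway genes, 1 mouse stood apart from the other 3 by more than Dixon's critical value, and chance flags about 1 in 20 groups. Sham-operated mouse 2 had the lowest log2 signal of Hbegf (10.66), and without it the log2 fold change was 2.89. MI mouse 4 had the lowest Nrg1 (6.62), and without it the log2 fold change was 1.09. MI mouse 1 had the highest Erbb3 (5.29). Sham-operated mouse 3 had the lowest Spry2 (4.55) and the highest Spry4 (8.72). Spry2 was dim, with an intensity of 14.5 in this mouse and 17.2 to 25.1 in the other sham-operated mice. The array of sham-operated mouse 3 had the smallest additive constant (3.16). In 4 of the 9 groups MI mouse 2 was the lowest MI mouse, with log2 signals of 9.78 for Lrig1, 10.98 for Grb2, 11.26 for Mapk3 and 8.18 for Pik3cb. Without MI mouse 2 the median log2 fold change of all tested probes was 0.22 instead of 0.12. The cause was not tested.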

How the results depend on the processing

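Hbegf was called with a log2 fold change of 2.91 to 3.05 in 13 other settings and 2.87 to 3.20 with a mouse left out, and Ereg with 1.00 to 3.82 and 2.98 to 3.23. Nrg1 lost its call with 75th percentile scaling (adjusted p = 0.0585 in limma), the spike-in shift (0.0643), the refitted vsn model (0.189), quantile normalization (0.0603), normexp (0.0697), no detection filter (0.174) and the methods' t-test (0.222). With detection required on all 8 arrays, 1 member was called past 2-fold, since Ereg was not tested. The pathway list had 11 calls with 75th percentile scaling, 2 with the spike-in shift, 3 with the refitted vsn model, 12 with quantile normalization, 15 with normexp, 1 with no detection filter and 1 with the methods' t-test. Leaving out a mouse gave 2 (MI mouse 3) to 6 (MI mouse 2), with 3 without MI mouse 1, sham-operated mouse 2 or sham-operated mouse 4 and 4 without MI mouse 4. Values that were not called turned sign for Btc (0.01 without sham-operated mouse 2 and without MI mouse 2, 0.13 without MI mouse 3, lowest -0.19), Egfr (0.0597 as the mean over its probes, -0.30 to 0.0043 with a mouse left out) and Erbb2 (-0.0159 with quantile normalization). Over all probes, 2590 calls (82.8% higher) became 5973 (49.6% higher) with 75th percentile scaling, 6142 (48.7%) with quantile normalization, 7035 (47.1%) with normexp, 1271 (90.5%) with the refitted vsn model, 990 (94.7%) with no detection filter and 749 (98.7%) with the methods' t-test. Of the log2 fold changes of members under each alternative, 149 kept their direction and their side of the threshold, 10 lost the call and 6 changed sign. Of the counts of calls, 49 stayed within 1.5 times of the main count, which leaves room for a gain or loss of 1 or 2 calls. The cause was not tested. Dim probes (Areg, Tgfa, Erbb3, Erbb4 and Ereg in sham-operated mice) lay near background, which limits their folds. Their log2 signals, spreads and overlaps also depend on the additive constant of each array, and are not differences between mice alone.

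With the replicate number as a block, 11 pathway genes and 4895 of all probes were called, and Hbegf, Ereg and Nrg1 stayed called. Deviations of same-numbered mice correlated at 0.238, 0.292, 0.143 and 0.0114. MI mice 3 and 4 and sham-operated mouse 4 did not correlate best with their own number. MI mice 1 and 2 and sham-operated mice 1, 2 and 3 did. These values do not settle whether the numbers are pairs, and the main fit took the mice as unpaired.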
